A study of Mus musculus with 2 samples.

Results

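The 10 genes described here belong to the NRF2 and glutathione stress response: Gsta1, Gsta2, Gm3776, Gstm3, Nqo1, Slc7a11, Gclc, Srxn1, Txnrd1 and Hmox1. The genes were followed in single hepatocytes of mice injected with an NRAS transposon. They were taken by symbol, and all 10 were found among the 31053 gene rows of the count matrix. The cells came from 3 female C57BL/6 (BL6) mice injected at 6 to 8 weeks of age by hydrodynamic tail vein (HDTV) injection, a rapid high-volume injection that delivers plasmid mainly to hepatocytes. Of these, 2 received an oncogenic NRAS G12V transposon and 1 the NRAS G12V/D38A control, whose second substitution lies in the effector loop and blocks signalling. In all 3 the CAGGS promoter, which is active in most cell types, drove NRAS together with mVenus from 1 transcript, and the SB13 transposase came on a second plasmid, so every mouse carried a transgene. At day 6 the livers were dissociated, each mouse was given its own hashtag antibody, and mVenus-positive cells were sorted and pooled as 1 suspension for droplet sequencing.

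Mice are named here by hashtag. The deposited table gives hashtag 1 to the D38A mouse and hashtags 2 and 3 to the G12V mice, whereas the methods give hashtag 3 to D38A and hashtags 1 and 2 to G12V. Hashtag 2 was G12V in both. Hepatocytes were cells in which at least 1% of the gene UMIs (unique molecular identifiers, counted molecules) came from Alb, Apoa1, Apoa2, Ttr and Fgb. Of 10212 cells that passed the filters, 8502 met this rule: 456 of hashtag 1, 1400 of hashtag 2, 422 of hashtag 3 and 6108 without a hashtag call. The median depth was 10170 UMIs in hashtag 1, 40143 in hashtag 2, 2394 in hashtag 3 and 2949.5 in cells without a hashtag. The rule was loose. Endothelial and immune markers made up at least 0.2% of the UMIs in 21.7% of the hepatocytes of hashtag 1, 7.0% of hashtag 2, 44.6% of hashtag 3 and 0.557% without a hashtag. Just inside the rule lay 340 cells with 1% to 1.2% hepatocyte genes, and just outside it 221 cells with 0.8% to 1%.

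NRF2, encoded by Nfe2l2, is the transcription factor that KEAP1 holds at low level until oxidants or electrophiles modify KEAP1. It then pairs with small MAF proteins on antioxidant response elements and raises genes that make and use glutathione, reduce thioredoxin and conjugate electrophiles. In liver the glutathione S-transferases are abundant, and many differ between the lobule's zones as well as with stress.

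Gsta1, Gsta2 and Gm3776 encode alpha-class glutathione S-transferases and lie in 1 cluster on chromosome 9 (GRCm38). Gsta1 covers chr9:78230656-78242684 on the plus strand, Gm3776 chr9:78257129-78269166 on the plus strand and Gsta2 chr9:78331018-78355788 on the minus strand, with 14444 bases between the first pair and 61851 between the second. Gclc lies on the same chromosome at chr9:77754535-77794485. Gsta1 and Gm3776 are near copies. Their annotated transcripts differed at 4 of 874 aligned bases (99.5% identity), and both differed from Gsta2 at 24 bases (97.2%). Reads of the 3′ protocol were 91 bases long, and 318 of the 410 windows of that length in the last 500 bases of Gsta1 (77.6%) also stood in a transcript of Gm3776 or Gsta2. The same held for 319 windows of Gm3776 (77.8%) and 40 of Gsta2 (9.8%, Gm10639 included), and for 0 windows of the other 7 genes. In those last 500 bases a single position, 188 bases from the end of the Gsta1 transcript, told Gsta1 from Gm3776. It is shown in capitals within 29 bases, because the split of UMIs between the copies rests on reads over it.
Gsta1: aatgtgaagaagttCctacagcctggcag
Gm3776: aatgtgaagaagttTctacagcctggcag

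The stretch before the start site was also nearly the same in the pair. Over 237 aligned bases that end at the base before each RefSeq start (GRCm38.p6), at chr9:78230419-78230655 and chr9:78256892-78257128, Gsta1 and Gm3776 differed at 1 base, printed in capitals. Gsta2 differed from Gsta1 at 55 of 239 aligned bases.
Gsta1: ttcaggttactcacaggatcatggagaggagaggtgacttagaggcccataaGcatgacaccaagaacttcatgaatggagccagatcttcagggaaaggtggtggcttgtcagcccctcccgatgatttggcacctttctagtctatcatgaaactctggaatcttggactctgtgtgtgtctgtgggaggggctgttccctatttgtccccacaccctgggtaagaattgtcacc
Gm3776: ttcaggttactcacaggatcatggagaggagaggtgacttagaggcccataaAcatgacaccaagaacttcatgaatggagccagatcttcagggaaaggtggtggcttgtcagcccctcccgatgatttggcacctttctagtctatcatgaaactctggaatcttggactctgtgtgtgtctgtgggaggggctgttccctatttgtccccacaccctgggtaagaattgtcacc

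Promoters of 300 bases (250 before the start and 50 after) were at hand for 8 of the 10 genes, with 3 starts for Txnrd1 and without Gclc and Hmox1. Sequence further from the start was not searched, so the counts below do not tell which genes lack an element. They were searched on both strands for the antioxidant response element core TGACNNNGC and for its MAF-type form TGANTCAGC, 2 motifs that overlap, since 1 site can match both. The core stood in 2 of the 10 promoters of these genes and in 12.4% of 32851 mouse promoters, and the MAF-type form in 1 of 10 and in 1.19% of all. Matches before the start were in Txnrd1, on the opposite strand at the second start (chr10:82859054-82859182), and in Srxn1, 45 bases before the start (chr2:152105419-152105523). A further core match in Srxn1 lay after the start. The motif is in capitals.
Txnrd1: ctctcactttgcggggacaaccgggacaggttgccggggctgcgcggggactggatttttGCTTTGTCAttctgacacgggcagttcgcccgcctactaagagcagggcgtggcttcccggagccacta
Srxn1: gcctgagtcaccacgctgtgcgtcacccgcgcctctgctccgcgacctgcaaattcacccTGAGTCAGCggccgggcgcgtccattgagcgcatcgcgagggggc
The other genes were Slc7a11 at chr3:49892526-50443614 and Gstm3 at chr3:107963696-107969283, both minus strand, Nqo1 at chr8:107388225-107403206, minus strand, and Hmox1 at chr8:75093621-75100589, plus strand.

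The first question was whether the 10 genes follow the dose of NRAS. The level of Nras in CPM (counts per 1000000 gene UMIs of a cell or sum) sorted deep hepatocytes (at least 10000 UMIs) into 4 classes, baseline (under 300), low (300 to under 1000), intermediate (1000 to under 3000) and high (3000 or more). Hashtag 1 gave 153, 31, 24 and 23 cells in this order and hashtag 2 gave 827, 137, 93 and 72. Hashtag 3 gave 21 baseline cells and only 4 above, so its sum entered at baseline alone and every contrast between classes rests on 2 mice. UMIs were summed per mouse and class, and levels of genes are in CPM with the Nras and mVenus rows left out. The mVenus row stood at 10.7 CPM at baseline and 379 at high Nras in hashtag 1, and at 7.77 and 332 in hashtag 2. Endogenous Nras and the transgene were not told apart in the Nras row. How many baseline cells carried the transgene was not tested. Intervals are exact Poisson 95% intervals that cover counting error only.

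Gsta1 and Slc7a11 were higher and Gstm3 was lower already at low Nras, and these 3 were joined at high Nras by Srxn1, Txnrd1 and Hmox1 (higher) and Gclc (lower). In the edgeR fit with the mouse as a block, low against baseline Nras called 2 of the 10 genes higher (background, 2.64% of 10628 genes tested) and 1 lower (background, 2.49%). High against baseline called 5 higher (background, 11.9%) and 2 lower (background, 11.8%). Gsta2, Gm3776 and Nqo1 did not pass in either. The 3 calls at low Nras were lost when the hepatocyte rule was set at 5% (Gsta1 1.03, edgeR adjusted p = 0.1; Slc7a11 1.07, 0.132; Gstm3 -0.55, 0.493) and when the classes were Nras quartiles (0.89, 1.15 and -0.78, edgeR adjusted p from 0.437 to 1.0). The steps above low Nras called 0 of the 10. Intermediate against low had a background of 0.414% higher and 0.715% lower, with 4 of the 10 genes at an unadjusted p under 0.05 and 1 (Gclc, lower) called by DESeq2. High against intermediate had 0.0% higher and 0.00941% lower, with 0 of the 10 at an unadjusted p under 0.05 and 0 called by DESeq2. The median log2 fold change of all genes was -0.03 for high against baseline.

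**Figure D1:**
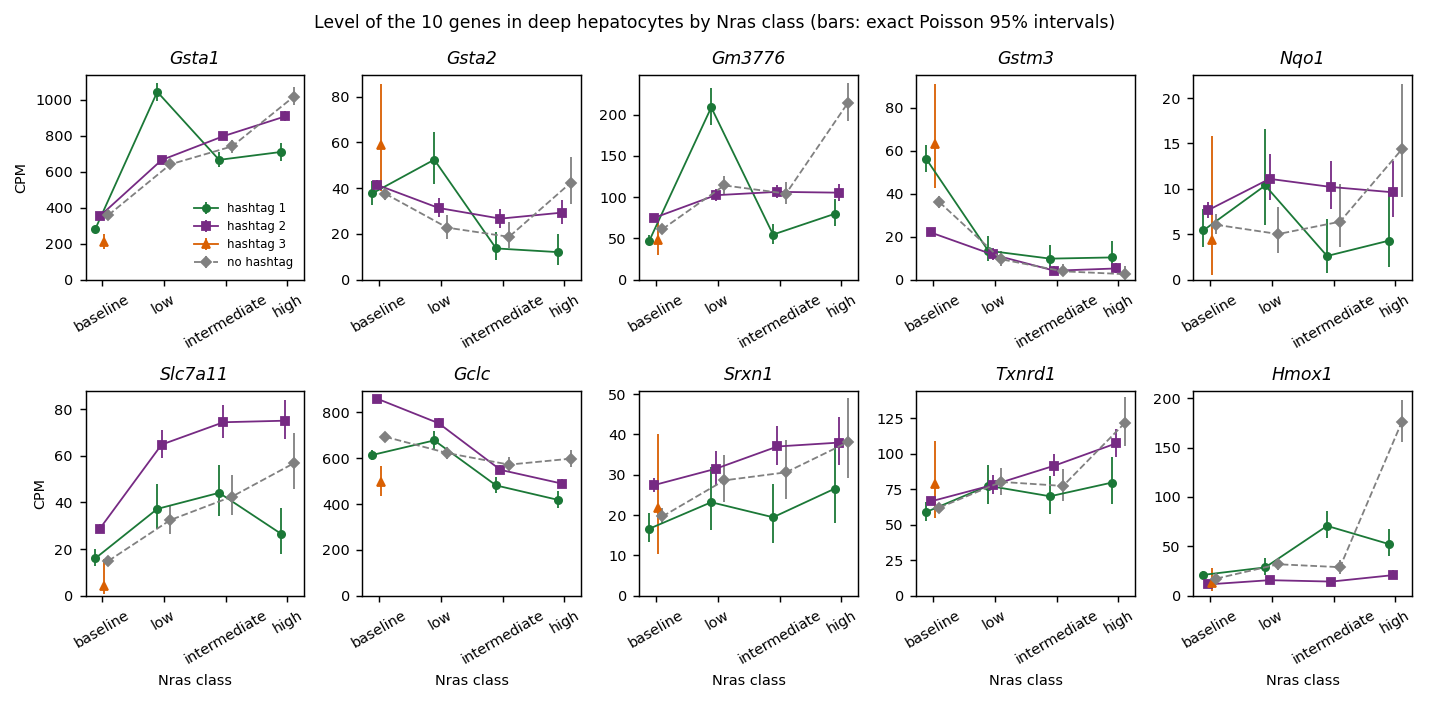
CPM (vertical axis, from 0) of each of the 10 genes in deep hepatocytes of the 4 Nras classes (horizontal axis), by hashtag, with exact Poisson 95% intervals; groups under 5 cells are left out. Gsta1 and Slc7a11 lie higher and Gstm3 lower in each class above baseline in both mice and in cells without a hashtag, and Hmox1 reaches 176 CPM in the high class without a hashtag.

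Among the glutathione S-transferases, which join glutathione to electrophiles, Gsta1 was the only one of the 3 alpha-class genes among the 10 to pass the test. Its level in hashtag 1 was 282 CPM (95% interval 268 to 297) at baseline, 1043 at low, 665 at intermediate and 709 (662 to 759) at high Nras. In hashtag 2 it was 352 (346 to 358), 664, 797 and 907 (879 to 936). Hashtag 3 had 208 at baseline, and cells without a hashtag went from 358 through 640.0 and 740.1 to 1017. Each class above baseline thus lay above every baseline value in these groups, while the order among the classes above baseline differed, since the low class was highest in hashtag 1 and lowest in hashtag 2. The log2 fold change was 1.46 ± 0.21 (SE) for low against baseline (edgeR, Benjamini-Hochberg adjusted p = 0.00359) and 1.37 ± 0.21 for high against baseline (edgeR adjusted p = 0.000938). After each cell was thinned to 10000 UMIs, 54.7% of 1666 baseline cells and 91.8% of 134 high cells held a Gsta1 UMI (exact binomial 95% intervals, 52.3 to 57.2% and 85.8 to 95.8%). Among 366 deep cells under the hepatocyte rule with at least 1% endothelial and immune marker UMIs the share was 14.8%, at a median depth before thinning of 12013.5 UMIs against 39369 in all deep hepatocytes. Binomial intervals, here and below, are over cells pooled from the 3 mice and from cells without a hashtag. They do not cover differences between mice.

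Gm3776 had 47.3 CPM at baseline and 209, 54.5 and 79.7 in the 3 classes above in hashtag 1, and 74.6, 102, 106 and 105 in hashtag 2. Both mice were thus above baseline in every class, but the size differed, and 1 cell held 23.4% of the low-class UMIs of hashtag 1. The log2 fold change was 1.34 ± 0.36 for low against baseline (edgeR adjusted p = 0.06) and 0.62 ± 0.36 for high against baseline (edgeR adjusted p = 0.265). Of 14 alternatives for low against baseline, 8 called Gm3776 higher, DESeq2 among them, and 3 of 14 did so for high against baseline. Gsta2 went from 37.8 to 12 CPM between baseline and high in hashtag 1 and from 41.5 to 29.3 in hashtag 2, but from 37.6 to 42.5 in cells without a hashtag. Its log2 fold change was -0.75 ± 0.32 (edgeR adjusted p = 0.125).

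Gstm3, a mu-class transferase, showed the lowest fold change of the 10. It went from 56.1 CPM (49.9 to 62.8) at baseline to 13.4, 9.73 and 10.3 (5.32 to 18.0) in hashtag 1 and from 21.9 (20.4 to 23.5) to 11.7, 4.11 and 5.16 (3.23 to 7.81) in hashtag 2. Cells without a hashtag went from 36.1 to 9.44, 3.83 and 2.50, and the baseline of hashtag 3 was 63.3. No class above baseline reached the lowest baseline value. At high Nras these levels rested on 12, 22 and 4 UMIs in hashtag 1, hashtag 2 and cells without a hashtag. Thinned cells with a Gstm3 UMI made up 19.9% at baseline and 7.46% at high Nras, the latter close to the 7.38% of the cells under the rule with other markers. The log2 fold change was -1.29 ± 0.22 for low against baseline (edgeR adjusted p = 0.00723) and -2.24 ± 0.27 for high against baseline (edgeR adjusted p = 0.000197). With cells of at least 20000 UMIs the first of these calls was lost (-0.71, edgeR adjusted p = 0.0935), and the second stood at -1.94 (edgeR adjusted p = 0.000488).

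Slc7a11, the cystine importer that supplies cysteine for glutathione, had 16.1 CPM (12.9 to 19.9) at baseline and 37.2, 44.1 and 26.6 (18.1 to 37.7) in the classes above in hashtag 1. Hashtag 2 had 28.7 (27.0 to 30.5), 64.8, 74.4 and 75.04 (67.1 to 83.7). The groups rose within each mouse but overlapped between them, since the high class of hashtag 1 lay below the baseline of hashtag 2. On the log2 scale the fold change was 1.21 ± 0.16 for low against baseline (edgeR adjusted p = 0.00171) and 1.22 ± 0.16 for high against baseline (edgeR adjusted p = 0.000348). Thinned cells with a Slc7a11 UMI made up 9.30% at baseline, 25% at low, 31.8% at intermediate and 32.8% at high Nras, against 4.92% of the cells under the rule with other markers.

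Gclc, the catalytic subunit of glutamate-cysteine ligase, the rate-limiting enzyme of glutathione synthesis, was lower at high Nras. Hashtag 1 had 614 CPM (594 to 636) at baseline, 678 at low, 481 at intermediate and 418 (382 to 457) at high. Hashtag 2 had 861 (851 to 870), 753, 549 and 489 (468 to 510). Cells without a hashtag had 694, 623, 572 and 598. The high class lay below the baseline in each of these groups, whereas the low class lay above it in hashtag 1 alone. In the fit the log2 fold change was -0.68 ± 0.12 for high against baseline (edgeR adjusted p = 0.00201) and 0.002 ± 0.116 for low against baseline (edgeR adjusted p = 0.999). This call did not stand when the hepatocyte rule was set at 5% (-0.28, edgeR adjusted p = 0.267).

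Srxn1, the sulfiredoxin that restores overoxidised peroxiredoxins, and Txnrd1, the cytosolic thioredoxin reductase, changed least among the called genes. Srxn1 had 16.6 CPM at baseline and 26.6 at high Nras in hashtag 1 and 27.4 and 37.99 in hashtag 2, and its log2 fold change was 0.53 ± 0.16 (edgeR adjusted p = 0.0314). Txnrd1 had 59.1 and 79.7 in hashtag 1 and 66.5 and 107 in hashtag 2, and its log2 fold change was 0.60 ± 0.13 (edgeR adjusted p = 0.00621). For both genes the high class exceeded the baseline of its own mouse, and for Srxn1 the high class of hashtag 1 lay below the baseline of hashtag 2. When cells were thinned before summing, neither was called (Srxn1 0.32, edgeR adjusted p = 0.667; Txnrd1 0.58, edgeR adjusted p = 0.151).

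Hmox1, heme oxygenase 1, which degrades heme, was called higher at high Nras (1.05 ± 0.30, edgeR adjusted p = 0.0279), but few cells carried its UMIs. In hashtag 1 it had 21.1 CPM at baseline and 28.7, 70.7 and 52.3 above, and in hashtag 2 it had 11.4, 15.7, 14.3 and 20.9. One cell held 43 of the 61 UMIs (70.5%) of the high class of hashtag 1, and without that cell the level was 16.9, below the baseline of the same mouse. In hashtag 2 the top cell held 25.8% of the high-class UMIs, and the level without it was 15.6. In cells without a hashtag 13 of 37 high cells carried Hmox1, with 98 of 282 UMIs in 1 cell. Thinned cells with a Hmox1 UMI made up 8.76% at baseline and 12.7% (7.57 to 19.5%) at high Nras, so the interval at high Nras includes the baseline share. The share was 9.56% in the cells under the rule with other markers. Those are other cell types, and their share is not a background level for hepatocytes. With the hepatocyte rule at 5% the log2 fold change was -0.22 (edgeR adjusted p = 0.818), and DESeq2 did not call it (adjusted p = 0.0888).

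Nqo1, the quinone reductase often used as an NRF2 readout, had the fewest UMIs of the 10 in deep hepatocytes and was not called in the Nras contrasts. It had 5.42 CPM (3.63 to 7.78) at baseline and 4.29 (1.39 to 10.0) at high Nras in hashtag 1, and 7.63 (6.74 to 8.59) and 9.62 (6.90 to 13.0) in hashtag 2. These intervals overlap within each mouse. The log2 fold change was 0.19 ± 0.33 (edgeR adjusted p = 0.761), and 6.84% of thinned baseline cells and 10.5% of high cells held a UMI. Cells without a hashtag, whose mouse is unknown, entered no test. They went from 6.03 CPM (5.002 to 7.21) at baseline to 14.4 (9.10 to 21.6) at high Nras. These 2 intervals did not overlap, but they cover counting error only and not differences between mice. For low against baseline the log2 fold change was 0.67 ± 0.30 (edgeR, unadjusted p = 0.0469, adjusted p = 0.282).

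**Figure D2:**
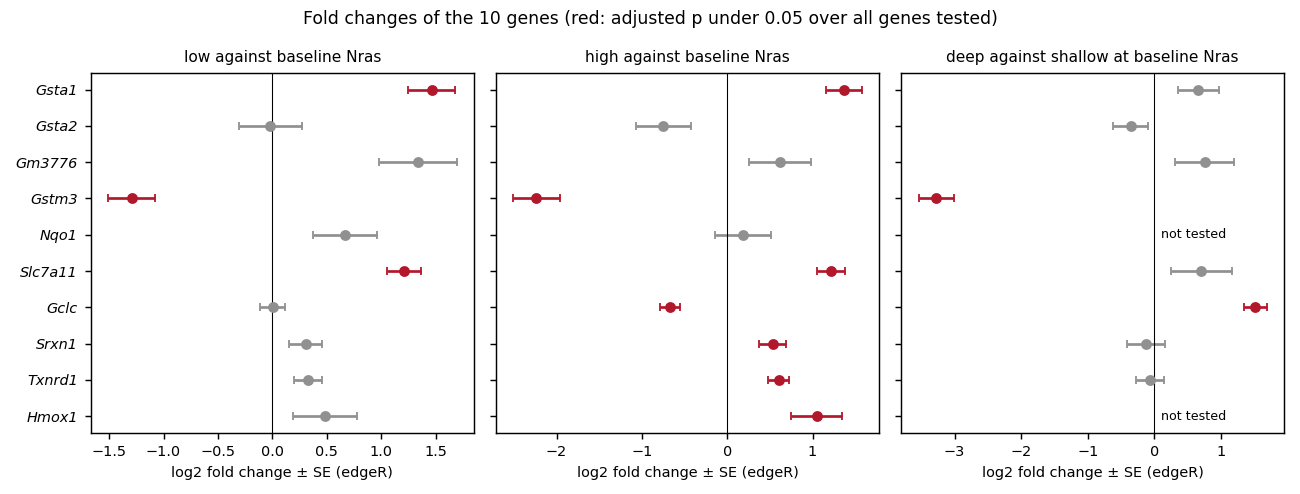
Log2 fold change with its SE (horizontal axis) of the 10 genes (vertical axis) from the edgeR fits, for low and high against baseline Nras in deep hepatocytes and for deep against shallow hepatocytes at baseline Nras; red points have an adjusted p under 0.05. Gstm3 lies to the left in all 3 panels, and Gclc lies at -0.68 for high Nras but at 1.52 for depth.

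Other measures moved with the Nras classes. The summed level of the 5 hepatocyte genes fell from 73020 CPM at baseline to 46640 at high Nras in hashtag 1 and from 99230 to 49380 in hashtag 2. The summed level of the 4 cholangiocyte markers (Krt19, Krt7, Epcam and Spp1) went from 3740 to 15380 and from 2527 to 18520. All 4 were detected at baseline in both mice, but only 2 and 3 of the 4 at high Nras, so the sum did not rise through all of them. The sum was not split by gene. Median depth went from 28435 UMIs per cell at baseline to 50894 at high in hashtag 1 and from 41918 to 59665 in hashtag 2. The 6 dendritic markers stood at 2623 CPM at baseline and 680 at high in hashtag 1 and at 250 and 387 in hashtag 2. When cells with at least 0.2% endothelial and immune markers were left out, high against baseline again called 5 of the 10 genes higher and 2 lower. The part of hepatocyte identity and of depth in these differences was not tested.

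The mice themselves could be set side by side only as values. At baseline Nras 9 of the 10 genes had at least 10 CPM in hashtag 1 or 2, and 1 of them, Gstm3, differed at least 2-fold between these mice (background, 2.44% of 6756 genes). Gstm3 was at 56.1 in hashtag 1 and 21.9 in hashtag 2, but at 21.7 and 20 in their baseline cells of at least 20000 UMIs. At high Nras 3 of 9 genes differed at least 2-fold (background, 2.66% of 6649 genes): Slc7a11 (26.6 in hashtag 1, 75.04 in hashtag 2), Gsta2 (12 and 29.3) and Hmox1 (52.3 and 20.9). If hashtag 1 was the D38A mouse, these are values of a control beside a G12V mouse, and if hashtag 3 was, they are values of 2 G12V mice. Under the first reading 1 of the 2 mice behind every Nras contrast is the control. Under the second reading the control values are the 21 deep baseline cells of hashtag 3, where Gsta1 was 208 (168 to 254), Gclc 498 (435 to 567), Gstm3 63.3 (42.4 to 91.0) and Slc7a11 4.37 (0.529 to 15.8). The 4 deep cells of hashtag 3 above baseline held 11 (low), 0 (intermediate) and 87 (high) Gsta1 UMIs and 0 of Gstm3. No test was made between constructs, since either reading leaves 1 control mouse.

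The second question was how the genes vary with depth among cells of baseline Nras. Shallow (1000 to under 5000 UMIs), middle (5000 to under 20000) and deep (20000 or more) cells were summed for all 3 mice. Deep cells had higher levels of Gclc and lower levels of Gstm3 than shallow cells. Of the 10 genes, 8 passed the filter on low counts (Nqo1 and Hmox1 did not), and 1 was called higher (background, 17.8% of 6043 genes) and 1 lower (background, 17.8%). Scaling by library size in place of TMM moved the median log2 fold change of all genes from -0.02 to -0.29 and the split of all calls from 1073 higher and 1073 lower to 799 and 1734, while Gclc and Gstm3 kept their calls and directions.

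Gclc had 299.9 CPM (248 to 360) in shallow and 664 (640 to 688) in deep cells of hashtag 1, 370.0 and 867 in hashtag 2, and 213 and 572 in hashtag 3. Every deep value lay above every shallow value. The log2 fold change was 1.52 ± 0.17 (edgeR adjusted p = 0.00022). Gstm3 had 382 and 21.7 in hashtag 1, 214 and 20 in hashtag 2, and 162 and 33.2 in hashtag 3, again without overlap, and its log2 fold change was -3.28 ± 0.27 (edgeR adjusted p = 6.7e-05). The middle class resembled the shallow one in Gstm3, at 284, 166 and 134 in the 3 mice. In cells without a hashtag Gstm3 went from 292 through 219 to 17.9 and Gclc from 328 through 394 to 738.

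The other 6 tested genes did not pass, with log2 fold changes from -0.36 ± 0.27 for Gsta2 (edgeR adjusted p = 0.331) to 0.75 ± 0.44 for Gm3776 (edgeR adjusted p = 0.213). Gsta1 stood at 0.66 ± 0.31 (edgeR adjusted p = 0.127), and without hashtag 3 it was called, with Gm3776. Cells without a hashtag went from 108 CPM (102 to 115) in shallow to 33.6 (30.9 to 36.5) in deep cells for Gsta2 and from 1.23 (0.612 to 2.19) to 16.3 (14.5 to 18.4) for Slc7a11, and entered no test. Gsta1 ran in opposite directions in the mice, from 195 to 302 in hashtag 1 and from 185 to 353 in hashtag 2, but from 188 to 114 in hashtag 3, whose deep class had 7 cells. Nqo1 had 7.69 and 3.46 CPM in shallow and deep cells of hashtag 1, 14.6 and 7.63 in hashtag 2, and 19.8 and 0 in hashtag 3, where 0 UMIs have an exact Poisson upper bound of 13.6 CPM. Hmox1 rested on 1, 4 and 17 shallow UMIs in hashtags 1, 2 and 3.

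**Figure D3:**
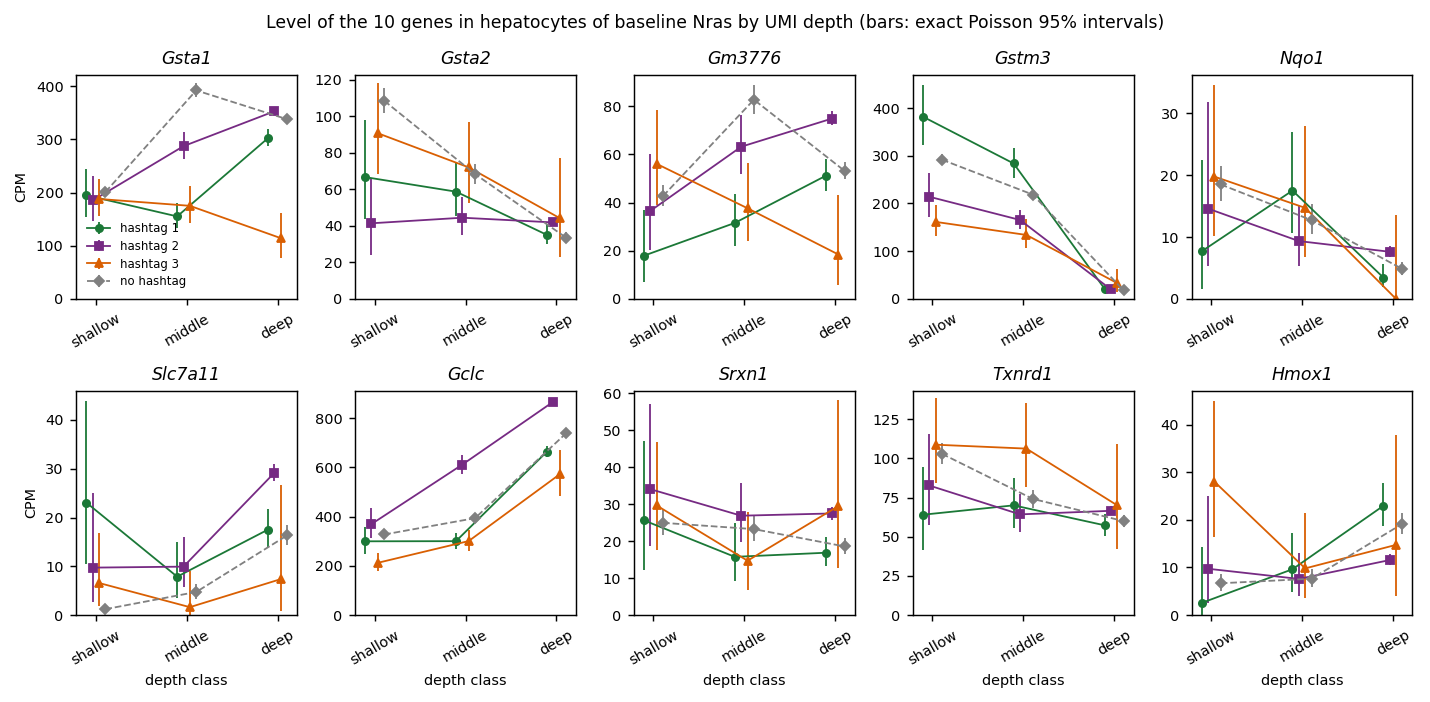
CPM (vertical axis, from 0) of the 10 genes in hepatocytes of baseline Nras by depth class (horizontal axis: shallow, middle, deep) and hashtag, with exact Poisson 95% intervals. Gstm3 falls to between 20 and 33.2 CPM in deep cells of the 3 mice, while Gclc reaches 572 to 867.

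Shallow and deep cells also differed in composition. Of the hashtag-called baseline cells, 38.8% of the shallow and 2.8% of the deep ones held at least 0.2% endothelial and immune marker UMIs. Mitochondrial UMIs had a median share of 0.87%, 1.86% and 6.47% in the shallow cells of hashtags 1, 2 and 3 and 8.76%, 8.96% and 8.64% in the deep ones. Hepatocyte genes summed to between 19610 and 36980 CPM in shallow cells and between 71660 and 99760 in deep cells of the 3 mice. Without the cells that held other markers Gclc stood at 1.52 (edgeR adjusted p = 0.00145) and Gstm3 at -3.68 (edgeR adjusted p = 0.000222), and with the hepatocyte rule at 5% Gclc stood at 1.43 (edgeR adjusted p = 0.018) and Gstm3 at -2.09 (edgeR adjusted p = 0.0902). The part of the mitochondrial share was not tested.

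Co-detection was then described cell by cell in 2236 deep hepatocytes thinned to 10000 UMIs, with or without a hashtag. In thinned cells the median number of the 10 genes found was 3 at baseline and low and 4 at intermediate and high Nras. Gclc was found in 94.7% of the cells and Nqo1 in 7.16%, and the other 8 lay between. Gsta1 and Gm3776 were found together in 25.04% of cells, 1.49 times the product of their shares (62.3% and 27.0%), and their Spearman correlation over cells was 0.555, the highest of all pairs. These copies share most of their 3′ sequence. At baseline Nras the highest ratios were for Slc7a11, with Gm3776 (2.65 times, 95 of 1666 cells) and with Srxn1 (2.12 times, 61 cells). Above baseline (570 cells) these 2 ratios were 1.41 and 1.44, and the highest was that of Gsta2 with Nqo1 (2.116 times, 14 cells). A ratio cannot exceed 1 over the larger share of its pair. That share went from 23.17% at baseline to 38.25% above for Gm3776 and from 18.55% to 26.14% for Srxn1. The ratios of the 2 sets of cells are thus not on the same scale. Gstm3 and Slc7a11 were found together less often than the product, at 0.421 times at baseline (13 cells). These correlations are over cells that share 1 library, and cells of 3 mice were pooled.

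**Figure D4:**
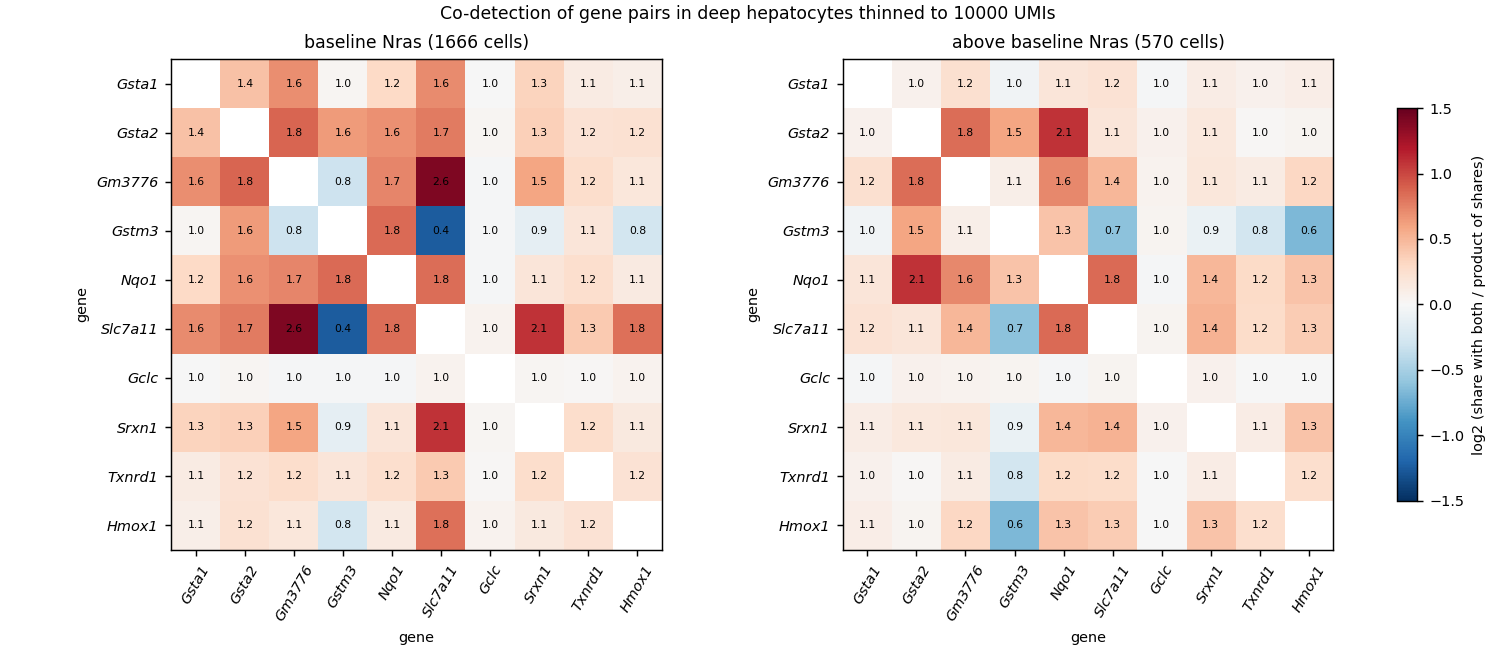
Ratio of the share of cells with both genes to the product of their shares for each pair of the 10 genes (both axes) in deep hepatocytes thinned to 10000 UMIs, at baseline Nras (left, 1666 cells) and above (right, 570 cells); red is more and blue less often than the product. Slc7a11 gives the highest ratios at baseline, 2.65 with Gm3776 and 2.12 with Srxn1, and Gclc, found in nearly every cell, stays near 1.

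UMIs of several genes sat in few cells. At baseline the top 10% of cells held 58.5% of the thinned Gsta1 UMIs, 78.1% of Gm3776 and 80.2% of Gstm3, but 28.7% of Gclc, close to the 27.9% of Alb. At high Nras the figure for Gsta1 was 34.2%, with a median of 7 UMIs per cell against 1 at baseline. Over the same 2236 cells the genes whose levels followed Gsta1 most closely, among 3886 found in at least 20% of cells, were Gsta4 (rho 0.63), Fth1 (0.57), S100a6 (0.569), Gm3776 and Esd (0.523). Those of Gclc were Ugdh (0.455), Creg1 (0.438), Ugt2b34 (0.404), Neat1 (0.392) and Cp (0.378). For Gsta2 the leading gene was Gstm1 (0.328). For Srxn1 and Txnrd1 no gene exceeded 0.206.

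The hepatocyte rule left out some deep cells that also carried these genes. Of 456 deep cells under 1% hepatocyte genes, 76 had under 0.2% endothelial and immune markers. Pooled over mice, Gsta1 stood at 850 CPM in the 31 of them at baseline Nras, 1151 in 20 at low, 1491 in 14 at intermediate and 491 in 11 at high. Their Gstm3 levels went from 53.2 at baseline to 5.43 at high Nras. Lcn2, a secreted stress protein, was at 118 CPM at baseline and 24.0 at high Nras in the deep hepatocytes of hashtag 1, and at 105 and 132 in hashtag 2.

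Other genes of the pathway were counted from 4 lists. Of the 20 other glutathione S-transferases, all tested, 3 were called higher (background, 11.9%) and 12 lower (background, 11.8%) at high against baseline Nras, with a median log2 fold change of -0.91. Gstm2 (-2.25 ± 0.35, edgeR adjusted p = 0.000984), Gsta3 (-1.76 ± 0.11, edgeR adjusted p = 2.97e-06) and Gstm7 (-1.68 ± 0.16, edgeR adjusted p = 3.36e-05) fell most. Gsta3 had 3122 CPM at baseline and 774 at high in hashtag 1 and 2642 and 892 in hashtag 2. Gstp2, of the pi class, rose by 1.71 ± 0.29 (edgeR adjusted p = 0.00159), and Gsta4 and Gsto1 were the others called higher. Within this family the genes called higher and lower thus ran side by side, as did Gsta1 and Gstm3.

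In the glutathione and thioredoxin system, 18 of 21 listed genes were tested, and 5 were called higher and 4 lower at high Nras against the same background of 11.9% and 11.8%, with a median of 0.09. Prdx5, a peroxiredoxin, rose most (1.02 ± 0.11, edgeR adjusted p = 0.000121), from 814 CPM to 1381 in hashtag 1 and 701 to 1629 in hashtag 2. Gsr, Gss, Slc3a2 and Txn1 were the others called higher: glutathione reductase, glutathione synthetase, the partner chain of the Slc7a11 importer and thioredoxin. Cat, Gpx1, Gclm and Sod1 were called lower, so both subunits of glutamate-cysteine ligase fell. Gclm had 481 and 249 CPM in hashtag 1 and 419 and 265 in hashtag 2.

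Of the other NRF2 targets, 23 of 24 were tested, and 6 were called higher and 5 lower at high Nras (background, 11.9% and 11.8%), with a median of -0.09. Akr1b8, an aldo-keto reductase, rose by 2.61 ± 0.22 (edgeR adjusted p = 1.89e-05), from 4.86 CPM to 33.4 in hashtag 1 and 6.55 to 37.5 in hashtag 2. Pgd and Tkt of the pentose phosphate pathway, the ferritin heavy chain Fth1, Abcc4 and the heme transporter Slc48a1 were also called higher, and Ephx1, Aox1, Cbr1, Htatip2 and Ftl1 lower. The 8 regulators (Nfe2l2, Keap1, Bach1, Cul3, Mafg, Maff, Mafk and Nfe2l1) gave 0 calls by edgeR, 1 at an unadjusted p under 0.05 and 0 by DESeq2. Nfe2l2 mRNA was at 99.2 and 88.3 CPM in hashtag 1 and 72.7 and 72.0 in hashtag 2.

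Low against baseline Nras called 7 of the 69 tested genes of the 4 lists higher (background, 2.64%) and 9 lower (background, 2.49%). Akr1b8 (1.26 ± 0.23, edgeR adjusted p = 0.0121), Gsta4 (0.86 ± 0.13, edgeR adjusted p = 0.00525) and Slc48a1 (0.65 ± 0.12, edgeR adjusted p = 0.0134) led the first, and Gpx1 (-0.85 ± 0.14, edgeR adjusted p = 0.00656), Gstk1 (-0.79 ± 0.17, edgeR adjusted p = 0.0232) and Gsta3 (-0.59 ± 0.10, edgeR adjusted p = 0.00917) the second. By list, at this same background, 1 of 20 transferases was called higher and 6 lower. The glutathione and thioredoxin system gave 2 and 2 of 18, the other NRF2 targets 4 and 1 of 23, and the 8 regulators 0. Intermediate against low called 0 of the 69 higher (background, 0.414%) and 3 lower (background, 0.715%), namely Gstm1 (-0.73), Cat (-0.71) and Gsta3 (-0.67).

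With depth at baseline Nras 3 of 18 transferases were called higher and 10 lower in deep cells, where the background was 17.8% in each direction, so the share called higher was near it. In the glutathione and thioredoxin system 1 of 17 tested genes was called higher and 9 lower (background, 17.8% each), with a median log2 fold change of -0.42. Gpx1 (-2.47 ± 0.26, edgeR adjusted p = 0.000149), Gstm2 (-2.46 ± 0.27, edgeR adjusted p = 0.000196) and Gstk1 (-1.73 ± 0.27, edgeR adjusted p = 0.00105) fell most over the lists. Of the other NRF2 targets 10 of 20 were called higher and 5 lower (background, 17.8% each), led by the canalicular and basolateral exporters Abcc2 (3.34 ± 0.45, edgeR adjusted p = 0.000443) and Abcc3 (3.59 ± 0.47, edgeR adjusted p = 0.000376) and by Ephx1 (2.94 ± 0.41, edgeR adjusted p = 0.000532). Among the regulators Nfe2l2 and Maff were called higher.

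**Figure D5:**
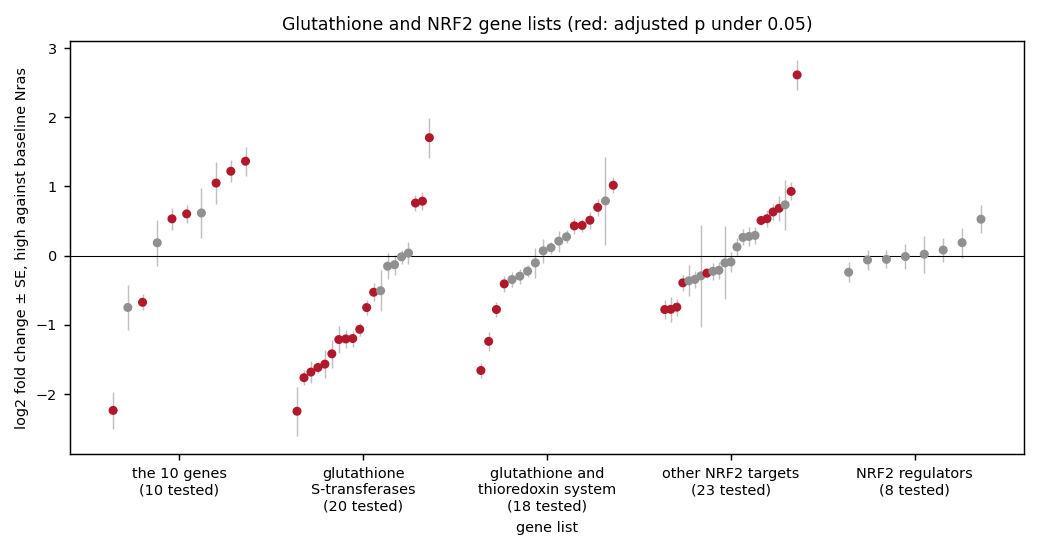
Log2 fold change with its SE for high against baseline Nras in deep hepatocytes (vertical axis) of the 10 genes and of the tested genes of 4 lists (horizontal axis), ordered by value within a list; red points have an edgeR adjusted p under 0.05. The transferase list holds 12 genes called lower and 3 called higher, and no regulator is called.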

How the data were processed

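Hepatocytes of 3 mice were profiled as 1 pooled suspension with a gene library and a hashtag library (10x 3′ v3). The authors deposited UMI counts per gene and barcode and hashtag counts per barcode, both unnormalized. The submitters' processing notes name Cell Ranger 2.1.1 and mm10, whereas the matrix header names Cell Ranger 3.0.2. The gene library held 142080194 UMIs in 13151 barcodes (median 3908 UMIs), of which 13141 were also in the hashtag library.

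Barcodes entered with 500 or more genes, 1000 or more UMIs and a mitochondrial share below 20%. Hashtags were called with HTODemux (Seurat 5.3.0, quantile 0.99): 1360, 2837 and 1285 barcodes for hashtags 1, 2 and 3, 7386 negative and 271 doublets. The doublets were left out, and no caller of transcript doublets was run. UMIs were summed per mouse and class, with 5 or more cells per sum, so that p-values rest on mice and not on cells. Sums were tested with the quasi-likelihood test of edgeR 4.0.16 (R 4.3.3), with TMM scaling, a filter on low counts, the mouse as a block and Benjamini-Hochberg adjustment over all genes tested at 0.05. Sums with the same hashtag come from the same mouse, which pairs them. Each edgeR SE was worked back as the size of the log2 fold change divided by the square root of the quasi-likelihood F statistic. DESeq2 1.42.0, other filters, depths and class borders, and the fit without the block were alternatives. Leaving out cells with other markers and dropping the hepatocyte floor were added after the data had been seen. Baseline sums are shared by the contrasts against baseline. The tests were tried on simulated counts with a single dispersion and no differences between mice. That trial cannot show how the tests behave when mice respond differently. Levels were computed with Python 3.11.15, numpy 2.4.6 and scipy 1.17.1, and figures drawn with matplotlib 3.10.9. Values are 3′ counts that are not scaled by length, so levels were not compared between genes.

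The members and lists were chosen with earlier results of these data known. Named were the 10 genes, up to 3 genes per direction and contrast with the largest change from the pathway lists, and the 5 genes most alike to a member. The other called pathway genes, with Gclm and Nfe2l2, were named after their values were seen. Sequences came from RefSeq (GRCm38.p6) and GENCODE vM21 (GRCm38).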

Additional observations from a re-analysis of the deposited data

Results flagged for a closer look

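Nqo1 moved in opposite directions in the mice between baseline and high Nras. The log2 difference in level was -0.28 in hashtag 1, from 29 and 5 UMIs, and 0.3 in hashtag 2, from 270 and 41 UMIs. The difference between the mice was not tested.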

How the results depend on the processing

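Of 14 alternatives for high against baseline Nras, Gsta1 (1.15 to 1.81) and Gstm3 (-2.62 to -1.61) were called in each, Slc7a11 in 13, Txnrd1 in 12 and Gclc, Hmox1 and Srxn1 in 11. Of the 10 genes, low against baseline called 3, but 0 with hepatocytes at 5%, 1 with no replicate block and 0 with Nras quartiles. Gm3776, not among these 3, was called in 8 of the 14 alternatives. Intermediate against low called 0, but 1 at 20000 UMIs, 1 with DESeq2, 3 with the plain hashtag rule, 4 with no filter, 1 with no hepatocyte floor and 2 without cells with other markers. High against intermediate called 0, but 1 with quartiles, and high against baseline 7, but 3 with no replicate block. Deep against shallow called 2, but 1 with hepatocytes at 5% and 4 with no filter, and between 2 and 4 when 1 mouse was left out, the 4 without hashtag 3. Direction turned for Slc7a11 in high against intermediate (0.67) and Gclc in high against baseline (0.034) with quartiles, and for Hmox1 in high against baseline with hepatocytes at 5% (-0.22). It also turned elsewhere for genes that the main fit did not call. Among these were Gsta2 in high against baseline (-0.75, up to 0.1) and 3 genes in intermediate against low: Gm3776 (-0.89, up to 0.55), Nqo1 (-0.495, up to 0.31) and Hmox1 (0.55, down to -0.3). The causes were not tested. Without hashtag 1 or 2 the Nras contrasts could not be fitted, since no residual degrees of freedom remained.

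Without thinning, cells with a UMI made up 77.2% for Gsta1, 45.8% for Gsta2, 46.7% for Gm3776, 34.1% for Gstm3, 20.7% for Nqo1, 26.6% for Slc7a11, 97.8% for Gclc, 52.2% for Srxn1, 82.5% for Txnrd1 and 26.6% for Hmox1. With hepatocytes at 5% the thinned shares were 56.7% for Gsta1, 24.8% for Gsta2, 24.7% for Gm3776, 5.80% for Nqo1, 9.81% for Slc7a11, 95.9% for Gclc, 41.2% for Txnrd1 and 8.18% for Hmox1.

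Counts over all genes moved by over 1.5 times as follows. Low against baseline called 546 genes, but 60 with hepatocytes at 5%, 254 with no replicate block, 0 with quartiles, 307 with DESeq2, 246 thinned, 1033 with no filter, 919 without cells with other markers and 854 with no floor. Intermediate against low called 120, but 202 at 20000 UMIs, 226 with the hashtag rule, 2 with hepatocytes at 5%, 566 with no filter, 0 with no replicate block or quartiles, 15 thinned, 284 with no floor and 320 without cells with other markers. High against intermediate called 1, but 21 with DESeq2, 184 with no filter, 581 with quartiles, 3 with the hashtag rule, 6 without cells with other markers and 0 thinned, at 5000 UMIs or with no replicate block. High against baseline called 2518, but 1386 with DESeq2, 982 with hepatocytes at 5% and 1028 thinned. Deep against shallow called 2146, but 997 with the hashtag rule, 74 with hepatocytes at 5%, 656 thinned and 1205 without hashtag 1. Nqo1 and Hmox1 rest on few UMIs. At high Nras so do Gstm3 (12 in hashtag 1 and 22 in hashtag 2) and, in hashtag 1, Gsta2 (14).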
